A study of Homo sapiens with 4 samples.

Results

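The Frizzled receptor family comprised the 10 genes FZD1 to FZD10, taken by symbol from the 17894 genes listed in each of 4 RNA-SEQ libraries. The cells came from H1, a human embryonic stem cell line, and were collected at day 2 of hematopoietic differentiation on mAGM-S3, a mouse stromal line, after sorting of human cells by a human-specific surface antigen. The groups were wild-type control cells (1 library), wild-type cells given R-spondin2 at 20 ng/mL during the first 1 day (1 library), and LGR4-/- cells (2 libraries, 1 from each of 2 clones, neither of them labelled as treated). The labels do not say how LGR4 was disrupted, and differences between single clones can hold clonal variation. Levels are given in FPKM, mapped fragments scaled by transcript length and library size, so that levels of different genes can be set side by side. Genes were tested where their mean over the 4 libraries reached 1 FPKM. All 10 Frizzled genes passed, among 12697 tested genes. FZD10, at a mean of 1.07 FPKM, passed only through its control level of 1.86, so the filter favored a drop against the control.

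Frizzled proteins are receptors that span the membrane 7 times, and WNT ligands bind their extracellular cysteine-rich domain. With the co-receptors LRP5 and LRP6 they pass the signal through Dishevelled to stabilize β-catenin, and some members also act in planar cell polarity and other β-catenin-independent branches. The ubiquitin ligases RNF43 and ZNRF3 remove Frizzled proteins from the cell surface. R-spondins, bound to LGR4, LGR5 or LGR6, block these ligases, so that the comparisons bear on the RNA of receptors whose protein is set by the pathway under study. WNT signaling is known to drive the exit from pluripotency into primitive streak and mesoderm, the step sampled at day 2.

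FZD5 and FZD8 are the sequences to look at first, because these closely related genes differed in opposite directions in the LGR4-/- clones (values below). Over the coding bases that could be aligned, FZD5 and FZD8 were 78.5% identical, next after FZD1 with FZD2 (81.8%), FZD2 with FZD7 (81.2%) and FZD1 with FZD7 (80.8%). FZD9 and FZD10 followed at 73.6%. In the GENCODE release 29 annotation of GRCh38, FZD5 lies on chromosome 2, 207762586 to 207769563, minus strand, with 2 exons of which 1 is coding. FZD8 is a single-exon gene on chromosome 10, 35638249 to 35642278, minus strand. The RefSeq promoter table (GRCh38.p14) matched 5 of the 10 genes by symbol, FZD1, FZD4, FZD5, FZD8 and FZD9. The windows of FZD5 (chr2:207769857-207770156, minus strand) and FZD8 (chr10:35642247-35642546, minus strand) run from 250 bases before the gene start to 50 bases after it, are written 5′ to 3′ on the gene's strand, and carry in capitals the CCAAT box (CCAAT) and the GC box (GGGCGG) on either strand, where neighboring GC boxes may overlap:
FZD5: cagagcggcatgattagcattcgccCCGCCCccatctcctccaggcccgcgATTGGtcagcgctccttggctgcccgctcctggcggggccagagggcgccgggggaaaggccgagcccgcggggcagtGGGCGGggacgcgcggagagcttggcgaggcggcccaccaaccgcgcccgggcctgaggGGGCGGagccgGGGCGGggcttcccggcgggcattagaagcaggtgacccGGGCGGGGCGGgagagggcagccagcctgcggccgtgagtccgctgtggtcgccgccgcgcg
FZD8: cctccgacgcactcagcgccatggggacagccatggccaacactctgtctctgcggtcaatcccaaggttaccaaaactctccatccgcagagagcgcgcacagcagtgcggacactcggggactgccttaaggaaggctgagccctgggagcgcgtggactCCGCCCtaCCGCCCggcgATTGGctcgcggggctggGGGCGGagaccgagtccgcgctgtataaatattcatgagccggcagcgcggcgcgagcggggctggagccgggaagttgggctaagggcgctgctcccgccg
The FZD5 window held 6 GC boxes and the FZD8 window 3, and each held 1 CCAAT box. A GC box was present in all 5 matched Frizzled windows and in 44.6% of 27305 promoter windows, and a CCAAT box in 4 of 5 and in 35.7%. The TCF/LEF core CTTTG, which nuclear partners of β-catenin bind, occurred in the FZD1 window only among the 5 and in 47.6% of all windows. The TATA box TATAAA occurred in the FZD8 window only among the 5 and in 12% of all. The GC content was 77.0% for FZD5 and 67.0% for FZD8 against a median of 58.3%. These matches are descriptions of letters in these windows, and the FZD5 window lies wholly before the start of the GENCODE transcript, since the annotations place its start differently.

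As a check of the labels, LGR4 RNA stood at 21.8 FPKM in control cells and 24.3 with R-spondin2, and at 7.40 and 13.95 in LGR4-/- clones 1 and 2, lower in both clones and still present. The estimated depth lay between 8680000 and 8910000 reads per library. It was derived from the low FPKM values and is not a count that the authors deposited. The 5 pluripotency markers POU5F1, NANOG, SOX2, DPPA4 and LIN28A were each higher in both clones than in both wild-type libraries. Of all tested genes, 34.4% were. The summed level of the 5 markers was 1136 FPKM in the control, 873 with R-spondin2, 1888 in clone 1 and 1730.3 in clone 2. The 7 primitive streak and mesoderm markers were each lower in both clones, where 27.6% of tested genes were. Their sums were 1082, 1429.6, 375 and 586 FPKM in the same order. The marker T was close to the control in clone 2, at 66.5 against 70.3 FPKM, and at 37.6 in clone 1. Of 6 stromal markers, 5 passed the filter, and the sums were 194, 261, 162 and 183 FPKM; DCN was at or below 0.27 FPKM in every library, while COL1A1 and COL1A2 lay between 64.0 and 153. LUM was at 5.49 FPKM in the control, 9.11 with R-spondin2, 0.16 in clone 1 and 1.45 in clone 2. It was past 2-fold lower in both clones, where 1.08% of tested genes were. PDGFRB, at 4.97, 5.52, 2.86 and 3.08 FPKM in the same order, and COL1A2 were also lower in both clones than in both wild-type libraries. COL1A1 (64.0, 83.6, 74.8 and 74.6 FPKM) and COL3A1 (4.65, 9.86, 4.29 and 6 FPKM) overlapped between the clones and the wild type. Of 6 endothelial and blood markers, 2 passed the filter, and the sums were 6.82, 6.73, 2.74 and 3.28 FPKM. RUNX1, a regulator of blood formation, was at 3.96, 3.71, 0.61 and 1.29 FPKM, past 2-fold lower in both clones, where 1.08% of tested genes were. CDH5 was at most 0.05 FPKM. The 2 endoderm markers summed to between 35.5 and 58.3 FPKM and went opposite ways in the clones. In the same order of libraries, SOX17 was at 47.1, 49.9, 23.6 and 27.2 FPKM, and FOXA2 at 9.05, 8.44, 11.9 and 11.6. Of the neuroectoderm markers, SOX1 was at 0 in control and R-spondin2 and PAX6 at most 0.47 FPKM. The part of these marker differences in the Frizzled values was not tested, and in bulk RNA fewer cells of a type and less RNA per cell cannot be told apart.

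FZD7 was the most abundant Frizzled gene in every library, and FZD2 was the next. FZD7 (NCBI gene 8324; chromosome 2, 202034587 to 202038445, plus strand, 1 exon), a receptor known for its role in pluripotent cells and early mesoderm, was at 109 FPKM in the control, 132 with R-spondin2, 65.2 in clone 1 and 69.4 in clone 2. It stood above 95.3% of tested genes in the control and above 91.4% in clone 1. FZD7 alone made up 66.0% of the summed Frizzled FPKM in the control, 69.9% with R-spondin2, 55.1% in clone 1 and 58.0% in clone 2. FZD2 was 5.64-fold below FZD7 in the control. FZD10 and FZD9 were the lowest in the control, at 1.86 and 2.09 FPKM.

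**Figure D1:**
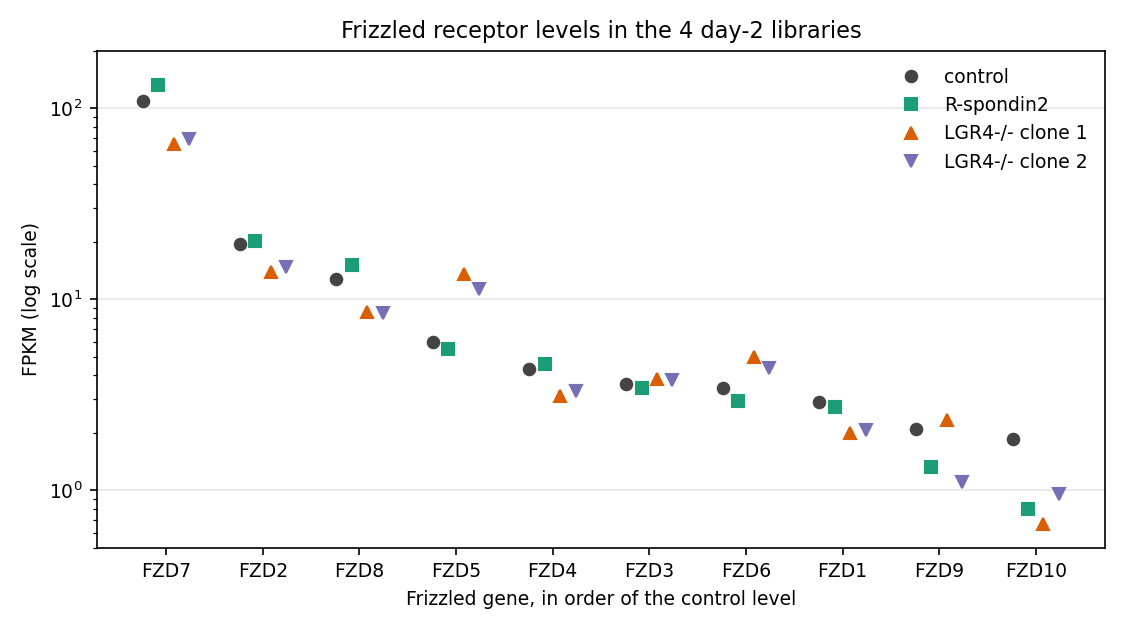
FPKM (log scale) of each Frizzled gene in the control, R-spondin2 and both LGR4-/- libraries, ordered by the control level; each point is 1 library. FZD7 lies between 65.2 and 132 FPKM, and FZD10 between 0.67 and 1.86; FZD5 is the gene whose clone points sit farthest above the control.

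The order of the 10 genes was the same in control and R-spondin2, and it differed in the clones. In both wild-type libraries the sequence was FZD7, FZD2, FZD8, FZD5, FZD4, FZD3, FZD6, FZD1, FZD9 and FZD10. In both clones it began with FZD7, FZD2, FZD5, FZD8, FZD6, FZD3 and FZD4. FZD2 and FZD5 were close in clone 1, at 13.8 and 13.6 FPKM. FZD3, FZD4 and FZD6 lay within 3.45 to 4.32 FPKM in the control, so that their order rests on small differences. FZD1 and FZD9 also exchanged places between the clones, at 2.00 and 2.33 FPKM in clone 1 and 2.07 and 1.11 in clone 2. FZD8 was 2.13-fold above FZD5 in the control and 2.75-fold above it with R-spondin2. FZD5 was 1.58-fold above FZD8 in clone 1 and 1.34-fold above it in clone 2. The sum of FZD5 and FZD8 stayed within 18.8 to 22.2 FPKM over the 4 libraries.

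The summed level of the 10 genes was 166 FPKM in the control, 188 with R-spondin2, 118 in clone 1 and 119.6 in clone 2. Without FZD7 the sums were 56.4, 56.7, 53.0 and 50.2 FPKM. The clones thus had 71.7% of the control sum on average with FZD7 and 91.5% without it. FZD1, FZD2 and FZD7, the 3 genes closest in coding sequence, together held 79.4% of the sum in the control, 82.1% with R-spondin2, 68.5% in clone 1 and 72.1% in clone 2. The share of FZD5 was 3.62% in the control and 2.92% with R-spondin2, against 11.5% and 9.50% in the clones.

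**Figure D2:**
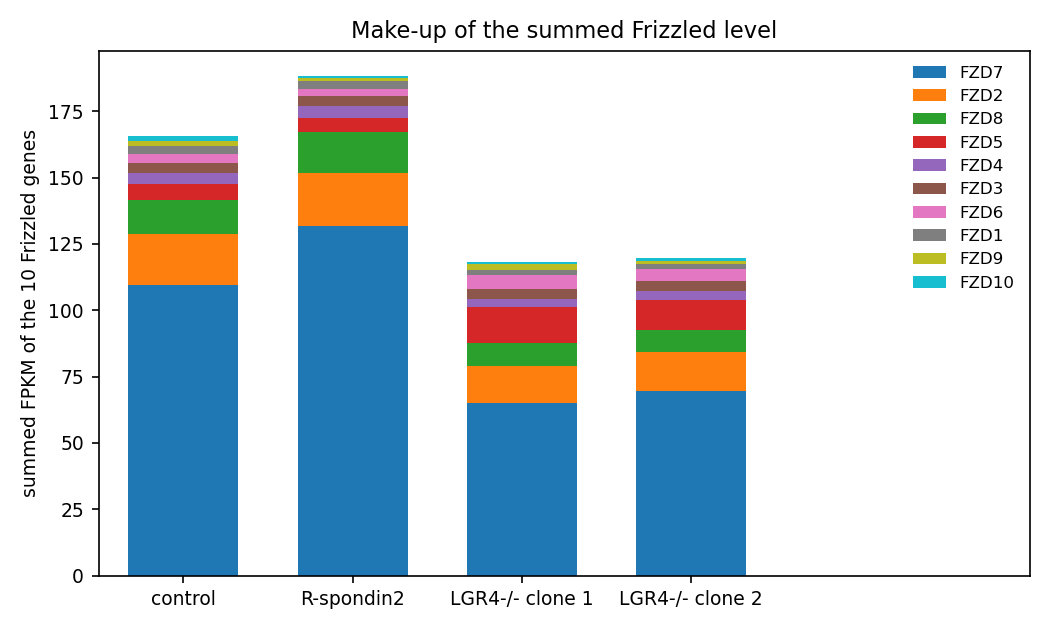
Summed FPKM of the 10 Frizzled genes in each library, stacked by gene, with FZD7 at the base. The bars reach 166, 188, 118 and 119.6 FPKM, and most of the difference in height lies in the FZD7 segment.

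The comparison of R-spondin2 with control asks whether added ligand went along with other receptor RNA. Differences are given in log2(FPKM+1), a scale that understates differences of low genes, and a gene was counted as past the threshold at 2-fold. With 1 library on each side there is no replicate check and no test. No Frizzled gene was past 2-fold, where 0.221% of tested genes were. The median difference of the 10 genes was -0.058, beside -0.008 over all tested genes. Of the 10, FZD10 alone was past 1.5-fold, where 2% of tested genes were. FZD7 and FZD8 were higher with R-spondin2, by 0.26 and 0.23, while FZD10 and FZD9 were lower, by -0.67 and -0.41. FZD6 (-0.18), FZD5 (-0.10), FZD1 (-0.06), FZD3 (-0.05), FZD2 (0.05) and FZD4 (0.07) lay nearer to 0. The SD of these differences over all tested genes was 0.213.

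Counting error was judged from implied reads, the reads that follow from the FPKM, the GENCODE transcript length and the estimated depth, for the 8 Frizzled genes with a single listed transcript. The 95% Clopper-Pearson intervals cover counting error between 2 libraries only, not the spread between cultures. FZD7 had 3763 implied reads in the control and 4411 with R-spondin2, a log2 ratio of 0.27 with an interval of 0.20 to 0.33. FZD8 had 458 and 531, with a ratio of 0.25 and an interval of 0.07 to 0.43. The interval also left out 0 for FZD10, at 54 and 23 implied reads (-1.19, interval -1.97 to -0.46). FZD10 was below the control by more than counting error, on a small number of reads. It passed the filter only through the control, so this drop is no independent result. For FZD9, at 44 and 27 implied reads, the interval of -1.41 to 0.06 held 0. FZD1, FZD2, FZD4 and FZD5 likewise had intervals that held 0, the widest of them -0.40 to 0.22 for FZD1, and no difference could be detected at this depth.

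The comparison of LGR4-/- with control asks how receptor RNA stood in LGR4-/- cells, and it uses the same control library as the R-spondin2 comparison. Both clones were outside the range of control and R-spondin2, on the same side, for 8 of 10 Frizzled genes, where 62% of all tested genes were. FZD1, FZD2, FZD4, FZD7 and FZD8 were lower in both clones (5 of 10, where 27.6% of tested genes were), and FZD3, FZD5 and FZD6 were higher (3 of 10, where 34.4% were). The groups overlapped for FZD9 and FZD10. The median difference of the 10 genes, as the mean of both clones minus control, was -0.35, beside 0.02 over all tested genes, and was -0.38 for clone 1 and -0.36 for clone 2. No Frizzled gene was past 2-fold in both clones, where 1.32% of tested genes were (0.236% higher and 1.08% lower). FZD5 was past 2-fold in clone 1 (3.52% of tested genes), and no member was in clone 2 (1.5%). At 1.5-fold, FZD5, FZD7 and FZD10 were past the threshold in clone 1 (11.6% of tested genes) and FZD5 and FZD7 in clone 2 (7.03%). FZD5 and FZD7 were thus past it in both clones, where 5.7% of tested genes were, with FZD5 higher (2.61% of tested genes) and FZD7 lower (3.09%).

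limma was fitted to all tested genes, with the lone control assumed to vary like the 2 clones. The spread of each gene between the clones (1 residual degree of freedom) was moderated toward a trend over all tested genes. That trend had the larger weight (4.05 prior degrees of freedom), so an SE is not the spread of that gene between the clones. For FZD8 the SD of the clones was 0.015 and the SE 0.12. At an adjusted p under 0.05 it called 0 Frizzled genes and 0 of the 12697 tested genes (0%). At an unadjusted p under 0.05 it gave 5 of 10 Frizzled genes, FZD10 among them, where 18.4% of tested genes passed. The calls depended on the fit: 2 Frizzled genes, FZD5 and FZD7, passed once each library was divided by its median ratio, where 4.32% of tested genes did. The same pair passed with a minimum mean of 5 FPKM, a filter that left 4 Frizzled genes among 9029 tested, of which 5.5% passed. With control and R-spondin2 pooled as the wild type, FZD2, FZD5, FZD7 and FZD8 passed, where 14.7% of tested genes did.

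Among the genes closest to FZD7 in sequence, all were lower in the clones. FZD7, at 109 and 132 FPKM in the wild-type libraries and 65.2 and 69.4 in the clones, had a log2 difference of -0.69 (SE 0.08, limma adjusted p = 0.0755). Its clones lay well below both wild-type libraries and close to each other. FZD2 (NCBI gene 2535; chromosome 17, 44557459 to 44559570, plus strand, 1 exon), which takes part in β-catenin-dependent and WNT5A-driven signaling, was at 19.4 FPKM in the control, 20.2 with R-spondin2, 13.8 in clone 1 and 14.7 in clone 2 (log2 difference -0.42, SE 0.11, limma adjusted p = 0.146). FZD1 (NCBI gene 8321; chromosome 7, 91264364 to 91271326, plus strand, 1 exon), another WNT receptor of this branch, was at 2.91, 2.74, 2.00 and 2.07 FPKM in the same order. Its difference was -0.37 (SE 0.17, limma adjusted p = 0.331). For these 3 genes the interval of implied reads lay below 0 in each clone against control.

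FZD5 and FZD8 parted. FZD5 (NCBI gene 7855), whose protein is needed for yolk sac vessels in the mouse embryo, was at 6 FPKM in the control, 5.51 with R-spondin2, 13.6 in clone 1 and 11.4 in clone 2. Both clones were above both wild-type libraries, at 2.27-fold and 1.89-fold of the control. The log2 difference was 0.94 (SE 0.16, limma adjusted p = 0.0899). This was the largest in size among the 10 on this scale, but with a pseudocount of 0.1 it was 1.04 and that of FZD10 was -1.12. At 359 implied reads in the control, 814 in clone 1 and 669 in clone 2, the log2 ratios were 1.18 (interval 1.00 to 1.37) and 0.92 (interval 0.73 to 1.11). FZD8 (NCBI gene 8325), whose cysteine-rich domain is a common reagent for binding WNT, was at 12.8 FPKM in the control, 15.2 with R-spondin2, 8.62 in clone 1 and 8.48 in clone 2. The clones were close to each other and below both wild-type libraries (log2 difference -0.53, SE 0.12, limma adjusted p = 0.115).

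FZD3 and FZD6, which are known for planar cell polarity, were at or above the control in the clones. FZD6 (NCBI gene 8323) was at 3.45 FPKM in the control, 2.94 with R-spondin2, 4.99 in clone 1 and 4.36 in clone 2 (log2 difference 0.35, SE 0.16, limma adjusted p = 0.344). FZD3 (NCBI gene 7976) was at 3.61, 3.45, 3.82 and 3.80 FPKM. Its range over the 4 libraries was 0.12 in log2(FPKM+1), the smallest of the family, so that the clones were separated from the wild type by little. The files list 2 transcripts for FZD3 and 4 for FZD6, and no counting interval was computed for them.

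FZD4, the receptor for Norrin as well as WNT proteins, was at 4.32 FPKM in the control, 4.60 with R-spondin2, 3.12 in clone 1 and 3.30 in clone 2 (NCBI gene 8322; chromosome 11, 86945679 to 86955391, minus strand, 2 exons). The log2 difference was -0.34 (SE 0.15, limma adjusted p = 0.331). In GENCODE, 19.7% of the bases of its transcript are also found, in exact matches of at least 50 bases, in transcripts of PRSS23 or PLEKHH2, so that its FPKM can include reads of another gene; PRSS23 was at 2.52, 3.12, 2.27 and 1.71 FPKM. No Frizzled transcript shared such a match with another Frizzled transcript.

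FZD9 and FZD10 had the lowest control levels of the family and rest on few reads. FZD10 (NCBI gene 11211; chromosome 12, 130162459 to 130165740, plus strand, 1 exon), the closest relative of FZD9 in coding sequence, was at 1.86 FPKM in the control and at 0.80, 0.67 and 0.96 in R-spondin2, clone 1 and clone 2. The control thus stood above the other 3 libraries, which implied 20 to 28 reads against 54. Only the control was above the 1 FPKM of the filter, so FZD10 was tested through the library where it was high. Its log2 ratios to the control were -1.43 in clone 1 (interval -2.25 to -0.67) and -0.93 in clone 2 (interval -1.64 to -0.24). FZD10 gave a log2 difference of -0.66 between LGR4-/- and control (SE 0.21, limma adjusted p = 0.195). FZD9 (NCBI gene 8326; chromosome 7, 73433783 to 73436120, plus strand, 1 exon), which lies in the region deleted in Williams syndrome, was at 2.09 FPKM in the control, 1.32 with R-spondin2, 2.33 in clone 1 and 1.11 in clone 2. The clones lay on opposite sides of the control. Between them FZD9 differed by -0.66 (clone 2 minus clone 1), the only Frizzled gene past 1.5-fold, where 2.41% of tested genes were. At 23 and 48 implied reads this came to a log2 ratio of -1.04 (interval -1.83 to -0.30).

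**Figure D3:**
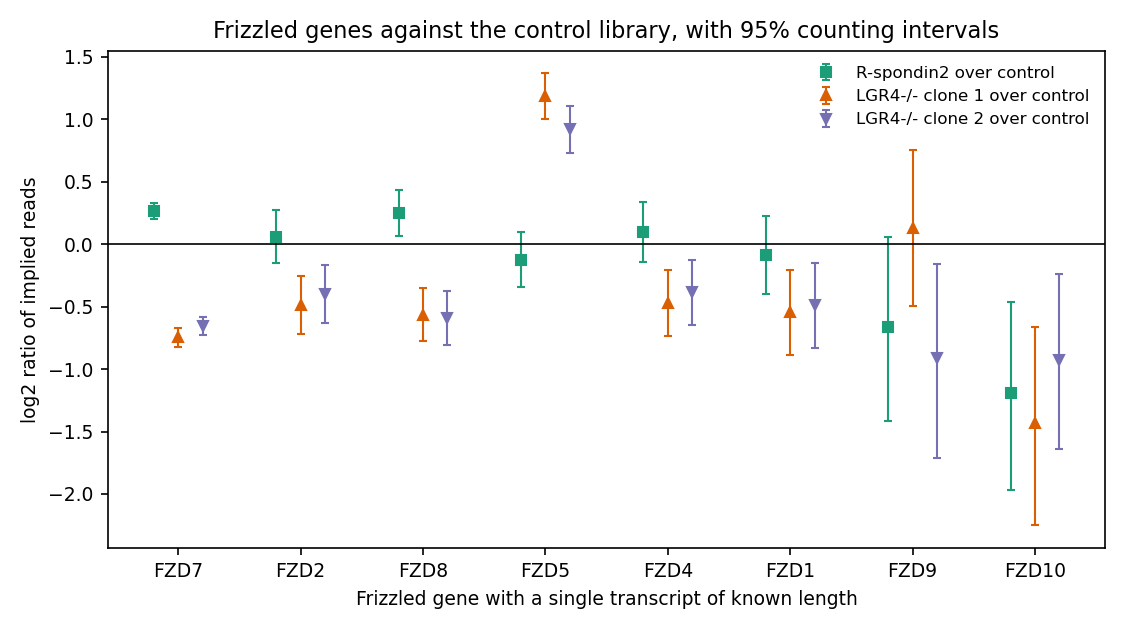
Log2 ratio of implied reads over the control library for the 8 Frizzled genes with a single transcript of known length; bars are 95% Clopper-Pearson intervals, which cover counting error only. FZD5 in both clones lies above 0 (1.18 and 0.92), and FZD7, FZD2, FZD8, FZD4, FZD1 and FZD10 lie below 0 in both clones, FZD10 with the widest intervals among them (-1.43 and -0.93).

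The clones were close to each other for most of the family. The median difference of clone 2 minus clone 1 was 0.01 over the 10 Frizzled genes and -0.003 over all tested genes, and besides FZD9 the genes lay between -0.24 and 0.23. Besides FZD9, the interval of implied reads left out 0 for FZD5 (-0.26, interval -0.41 to -0.11) and narrowly for FZD7 (0.09, interval 0.007 to 0.17). In both genes clone 2 was nearer to the control than clone 1, as it was for LGR4. Over all tested genes, 3.52% were past 2-fold from the control in clone 1 and 1.5% in clone 2. FZD8 (-0.52 in clone 1, -0.54 in clone 2) and FZD9 (0.11 and -0.55) went the other way. For FZD8 the interval between the clones, -0.26 to 0.21, held 0, so no difference could be detected. A link to the LGR4 level was not tested.

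FZD5 and FZD7 spanned the widest range over the 4 libraries, 1.17 and 1.00 in log2(FPKM+1). The genes whose pattern was nearest to FZD5 were AIG1, BEND4 and STOM, at Euclidean distances of 0.02, 0.03 and 0.04 over the 4 libraries after centering each gene. AIG1 was at 4.32, 3.91, 9.89 and 8.28 FPKM in control, R-spondin2, clone 1 and clone 2. Nearest to FZD7 were L1CAM, ANKRD6 and PRR23D2, at 0.05, 0.05 and 0.06. L1CAM was at 20.6, 25.2, 11.5 and 12.5 FPKM. With 4 libraries from few sources, such nearness is a description only.

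Partner genes of the Frizzled receptors were read from 6 lists, in which limma called 0 genes at an adjusted p under 0.05 in LGR4-/- against control. Of 8 co-receptors and alternative receptors, 7 passed the filter, with a median difference of 0.010 between LGR4-/- and control. LRP5 and LRP6 were at 10.3 and 10.4 FPKM in the control, and LRP5 was at 13.6 and 14.2 in the clones. ROR2, a tyrosine kinase receptor for WNT5A, was at 49.2 FPKM in the control, 58.9 with R-spondin2, 19.9 in clone 1 and 23.7 in clone 2. It was the gene of this list past 2-fold lower in both clones, where 1.08% of tested genes were. PTK7, a pseudokinase of planar cell polarity, was the highest of the list, between 77.5 and 94.5 FPKM.

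The genes that set Frizzled protein at the surface had a median difference of -0.78 over the 6 of 9 that passed, LGR4 itself included, and -0.54 without LGR4. Of them LGR5 was past 2-fold lower in both clones, where 1.08% of tested genes were. LGR5, an R-spondin receptor and WNT target, was at 36.7 FPKM in the control, 46.3 with R-spondin2, 4.85 in clone 1 and 9.78 in clone 2. RNF43 was at 1.77, 1.28, 0.81 and 1.01 FPKM in the same order, and ZNRF3 at 7.61, 7.28, 8.12 and 7.80. The ligase of higher RNA level, ZNRF3, thus stayed within 7.28 to 8.12 FPKM.

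Secreted proteins that carry a Frizzled-type cysteine-rich domain and bind WNT were higher in the clones where they were abundant. SFRP1 was at 28.8 FPKM in the control, 18.1 with R-spondin2, 82.2 in clone 1 and 48.9 in clone 2. SFRP2 was at 73.9, 50.5, 149 and 143 FPKM. Both were lower with R-spondin2 and higher in both clones than in the control, the reverse of FZD7. FRZB was at 2.89, 2.96, 1.92 and 2.20 FPKM. The median of the 3 of 5 that passed was 0.97 between LGR4-/- and control, and 0 were past 2-fold in both clones.

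Among 7 co-factors, 6 passed, with a median of -0.24 between LGR4-/- and control and 0 past 2-fold in both clones. TSPAN12, which works with FZD4, was at 16.1, 17.4, 8.80 and 12.3 FPKM, and APCDD1, a WNT inhibitor at the membrane, at 30.1, 31.4, 14.3 and 22.1. The 8 cytoplasmic partners all passed and had a median of -0.08, with 0 past 2-fold. CTNNB1, which encodes β-catenin, lay between 144 and 174 FPKM, and DVL1, a Dishevelled gene, between 27.1 and 32.6. Of 19 WNT ligands, 9 passed, with a median of -0.54. WNT5A and WNT8A were past 2-fold lower in both clones, where 1.08% of tested genes were. WNT5A was at 31.5, 42.5, 6.12 and 11.3 FPKM, and WNT8A at 11.2, 7.89, 3.45 and 4.03. WNT3, which is required for the primitive streak, was at 21.2, 25.6, 10.9 and 16.7 FPKM. None of the 6 lists held a gene past 2-fold with R-spondin2.

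**Figure D4:**
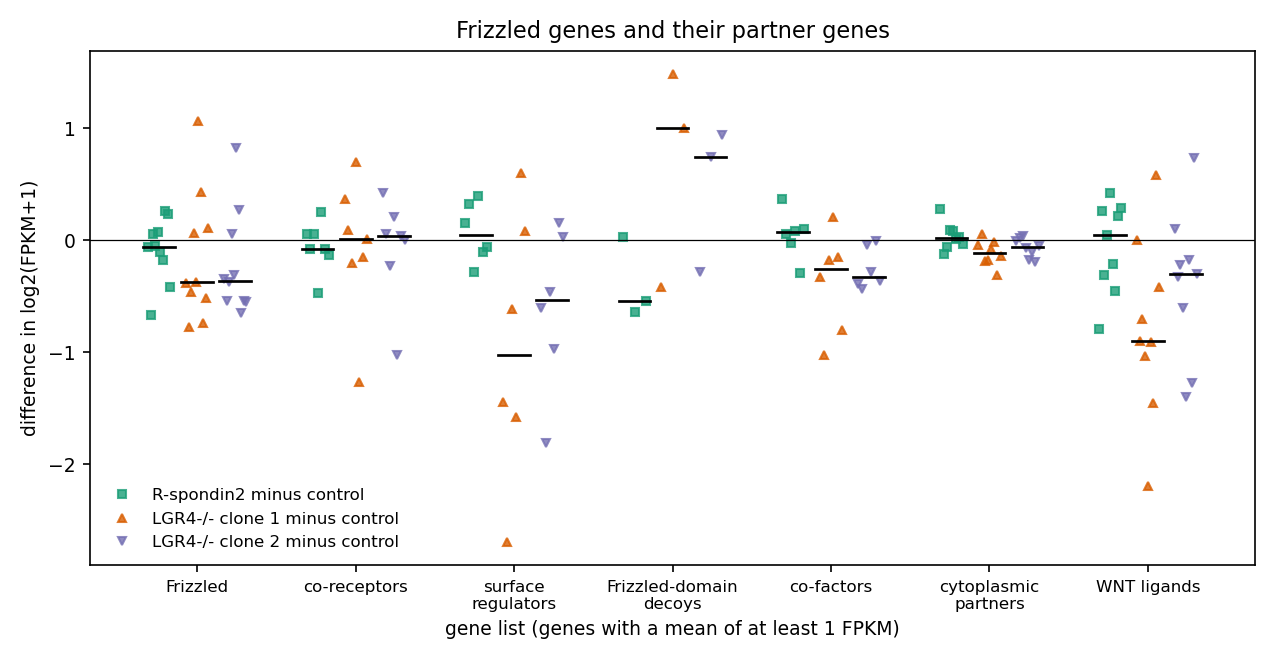
Differences in log2(FPKM+1) from the control library for the Frizzled genes and the tested genes of 6 partner lists; each point is 1 gene, and black lines are medians. The Frizzled medians are -0.058 with R-spondin2 and -0.38 and -0.36 in clones 1 and 2, and in the clones the medians of the co-receptors and the cytoplasmic partners lie nearest to 0.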

How the data were processed

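RNA-SEQ libraries of sorted H1 cells at day 2 were grouped by their labels as control (1 library), R-spondin2 (1 library) and LGR4-/- (2 clones). The authors deposited FPKM, given to 2 decimals for 17894 NCBI genes with their RefSeq transcripts in each library. The submitters' processing notes name BWA, Bowtie, RSEM and the build hg19, without versions. Filters and strand were not given in the sources used here. No read counts were used.

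FPKM were compared as log2(FPKM+1) for genes whose mean over the libraries reached 1 FPKM. LGR4-/- was compared with control in limma 3.58.1 (R 4.3.3), with 3 groups, a mean-variance trend, two-sided tests and Benjamini-Hochberg adjustment over all tested genes. R-spondin2 against control has 1 library a side and was not tested. Whether the clones came from separate cultures is not stated. The p-values rest on the spread between these 2 libraries, moderated for each gene toward a trend over all tested genes. Depth was estimated by a search for the library size that turned low FPKM (under 0.6, transcripts under 1500 bases by GENCODE 29) most nearly into whole reads. Between 76.3% and 77.7% of these values then lay within 0.2 of a whole read. Lengths of the authors' hg19 transcripts may differ, so that implied reads are approximate. Intervals need the depth and cover counting error only. The depth estimate and limma were also run on simulated data. These used the same GENCODE lengths and, for each gene, the same spread in all libraries. They cannot show the effect of other transcript lengths or of a control that varies unlike the clones. Promoter windows came from the RefSeq table (GRCh38.p14), coordinates from GENCODE 29 (GRCh38), coding identity from global alignment in Biopython 1.88, and shared sequence from BLAST 2.17.0. Other computations used Python 3.11.15, numpy 2.4.6, pandas 2.3.3 and scipy 1.17.1.

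The members, lists and tests were chosen with earlier results of these data known. Named genes were the 10 Frizzled genes, LGR4, list genes past 2-fold with R-spondin2 or in both clones, the 2 highest of each list, and the 3 nearest patterns of the 2 Frizzled genes of widest range. LRP5, LRP6, RNF43, ZNRF3, FRZB, PRSS23, LUM, COL3A1, PDGFRB, RUNX1, T, SOX17 and FOXA2 were named after their values were seen. Alternatives were other pseudocounts, filters, scaling, thresholds, groupings and clones left out. Protein sequences were not used here.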

Additional observations from a re-analysis of the deposited data

How the results depend on the processing

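The call of significance for the Frizzled genes in the clones depended on the processing. Filters and the trend leave each difference as it is, and a pseudocount cannot turn a direction that both clones share. Leaving a clone out cannot turn such a direction either. For such genes only rescaling and regrouping could have changed the direction. A filter of at least 5 FPKM, which kept 4 of the 10 genes, and rescaling by the median ratio each gave 2 Frizzled genes called by limma, with 497 and 548 genes called in all, and the 2-group fit by genotype gave 4, with 1862 in all; the pseudocount of 0.1, no filter and no trend gave 0. The median difference between LGR4-/- and control was -0.43 with a pseudocount of 0.1, -0.47 with the filter of 5 FPKM and -0.37 after rescaling, and lay between -0.38 and -0.36 with either clone left out. The median with R-spondin2 was -0.074 with a pseudocount of 0.1 and 0.14 with the filter of 5 FPKM, which keeps FZD2, FZD5, FZD7 and FZD8 only. Past 2-fold with R-spondin2 was 1 gene (FZD10) with a pseudocount of 0.1 and 1 with the threshold of 1.5-fold. In both clones it was 2 with the 1.5-fold threshold and 0 to 1 with either clone left out. Both clones were on 1 side of control and R-spondin2 for 4 of 4 genes with the filter of 5 FPKM. With either clone left out, the remaining clone was outside that range for 9 to 10 genes, a rule that is easier to meet. The share of all tested genes was not computed for these settings, so these counts do not show a stronger separation. The summed Frizzled level of the clones was 70.7% of the control after rescaling, 91.5% without FZD7 and 71.3% to 72.1% with either clone left out; this sum, the side count, the median of surface regulators without LGR4 and their alternatives were chosen after seeing the data. FZD9 alone reversed: its difference lay between -0.55 and 0.11 with either clone left out, the latter without clone 2. Its clones lay on opposite sides of the control, so leaving out 1 of them had to reverse it. Of the other values for single genes, 140 stayed within the spread between the clones or kept their call at an adjusted p under 0.05. A further 9 moved by more than that spread, and 8 gained a call. Part of the 140 could not have come out otherwise, so this count is no measure of stability. Filters leave the differences with R-spondin2 and between the clones as they are. Leaving a clone out always moves a difference by less than the spread, unless it reverses. Rescaling moved the median of all genes by at most 0.02. No paired analysis was possible because the control and R-spondin2 libraries carry no replicate number that pairs them with a clone. With 1 control library, differences common to both clones cannot be told apart from a deviation of that library, and for FZD9 and FZD10, at 20 to 54 implied reads, the counting intervals are wide.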
